A study of Mus musculus with 18 samples.

Results

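The genes described here are 37 stromal and extracellular matrix genes, picked by name from a table of read counts for 56748 genes. The list was drawn up with results of these counts known, and it does not record which comparison was used. All values of the 37 members are therefore given as a description, with no test of their own. The libraries came from bone marrow-derived macrophages of C57BL/6J mice, grown in medium with L929 cell supernatant, which supplies the macrophage growth factor M-CSF. The cells were wild type or TLR4 knockout, and TLR4 is the receptor for bacterial lipopolysaccharide. On day 7 they received water, GM (GlcNAc-MurNAc, a disaccharide of bacterial cell wall) or MDP (a muramyl dipeptide, spelled MurNAc-D-Ala-L-Gln in the labels) for 24 h in serum-free IMDM. Doses and the kind of knockout allele are not given. Each of the 6 groups (wild-type water, GM and MDP, and knockout water, GM and MDP) held 3 libraries called biological replicates. Nothing says that these were separate animals or cultures, so spreads may be partly technical.

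Fibroblasts and other stromal cells build the matrix that holds a tissue together. They secrete fibrillar collagens, which form the tensile fibres, network collagens of basement membranes and cell surfaces, and proteoglycans and glycoproteins that organise the fibres. In bone marrow, stromal cells also make CXCL12, which holds blood-forming cells in place. Marrow cultures grown for macrophages start from a mixed cell suspension that can include such cells. Some of these genes, fibronectin among them, are also expressed by macrophages.

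The labelled cell type was checked against 10 macrophage markers. All 10 had counts in every library, with a sum of 24200 to 32600 CPM (counts scaled to library size with TMM factors). Total counts were 15532973 to 21128507 per library. Tlr4 lay at 117 to 229 CPM in wild-type and 36.5 to 52.8 CPM in knockout libraries. Wild-type water replicate 3 stood apart from replicates 1 and 2. The counts of replicates 1 and 2 differed by a chi-square of 4.48 per degree of freedom over genes, against 160 for replicates 1 and 3 and 131 for replicates 2 and 3. Wild-type GM libraries differed by 32.7 to 102, with replicate 2 farthest from the others, and wild-type MDP replicate 3 by 18.8 and 20.1 from replicates 1 and 2. All other pairs within a group lay between 3.45 and 6.1, so no pair agreed within counting error.

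Of the 37 members, 34 had enough counts to be tested. The other 3 were Lum, a collagen-fibre proteoglycan gene (47 counts over all 18 libraries), Mgp, which encodes a calcification inhibitor (14 counts), and the transcription factor gene Twist1 (26 counts). In each wild-type water and GM library 3 or 4 of the 37 had under 10 counts, in wild-type MDP 11 to 13 and in knockout 19 to 27. A member that entered through the group where it was high had to differ, so counts over them are descriptions.

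Promoters are shown for 2 pairs of members with related products whose levels part in knockout cells, as given below. RefSeq's table (build GRCm38.p6) held promoters for 22 of the 37 members. The 250 bases before the start are printed 5′ to 3′ on the gene's strand, for Acta2 (chr19:34255374-34255623, minus strand), Myl9 (chr2:156775214-156775463, plus), Col1a2 (chr6:4505368-4505617, plus) and Col5a1 (chr2:27886175-27886424, plus). Capitals mark CArG-like boxes, the sequence bound by serum response factor with at most 1 G or C in its A/T core, and CCAAT, both sought on either strand.
Acta2: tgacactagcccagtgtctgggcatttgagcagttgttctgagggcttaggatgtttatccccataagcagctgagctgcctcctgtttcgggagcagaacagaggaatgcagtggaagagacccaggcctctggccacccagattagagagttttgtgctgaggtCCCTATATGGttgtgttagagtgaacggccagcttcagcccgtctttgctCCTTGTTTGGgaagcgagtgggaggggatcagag
Myl9: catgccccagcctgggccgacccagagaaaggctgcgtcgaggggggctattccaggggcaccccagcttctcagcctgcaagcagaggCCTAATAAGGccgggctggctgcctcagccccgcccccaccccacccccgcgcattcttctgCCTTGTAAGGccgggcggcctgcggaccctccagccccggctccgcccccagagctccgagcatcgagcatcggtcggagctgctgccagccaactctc
Col1a2: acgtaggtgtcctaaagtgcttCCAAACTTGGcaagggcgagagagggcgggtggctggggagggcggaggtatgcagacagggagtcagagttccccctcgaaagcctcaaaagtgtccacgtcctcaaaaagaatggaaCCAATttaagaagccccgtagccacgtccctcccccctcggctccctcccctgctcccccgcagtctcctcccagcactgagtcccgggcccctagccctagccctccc
Col5a1: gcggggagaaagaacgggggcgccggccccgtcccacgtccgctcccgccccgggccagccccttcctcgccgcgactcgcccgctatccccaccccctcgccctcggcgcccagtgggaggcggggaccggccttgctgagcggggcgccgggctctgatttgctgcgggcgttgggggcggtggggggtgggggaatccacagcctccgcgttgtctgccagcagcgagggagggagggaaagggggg
Acta2 and Myl9 encode contractile proteins, and each window held 2 CArG-like boxes. Those of Acta2 lay 84 to 75 and 34 to 25 bases before the start. Those of Myl9 lay 161 to 152 and 99 to 90 bases before it, and the former was a strict CArG box. The CArG-like form was added after the strict box was seen not to match Acta2, so the Acta2 match is a description only. Of 32841 promoter windows of this length, 8.59% held a CArG-like box and 1.47% a strict one. Among the 22 matched members, 5 held a CArG-like box, 1 a strict one and 6 a CCAAT in any of their promoters. These counts are per gene and the shares are per window, so they are unlike measures. Col1a2 held 1 CArG-like box and 1 CCAAT, which is in 33.9% of windows, and the Col5a1 window held neither. These matches are letters in a window, and binding was not measured.

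The list as a whole was highest in wild-type water replicates 1 and 2 and lowest in knockout cells. Its level in a library is the median over the 34 tested members of log2 CPM relative to each gene's mean over the 18 libraries. It was 3.83, 3.83 and 1.48 in wild-type water replicates 1, 2 and 3. With GM in wild type it was 1.72, 2.16 and 1.92, and with MDP -0.21, -0.43 and 0.08. In knockout cells it was -1.21, -1.44 and -1.51 in water, -1.92, -1.45 and -1.84 with GM, and -1.26, -1.25 and -1.85 with MDP. All 9 wild-type libraries lay above all 9 knockout ones, and the MDP libraries lay below the other wild-type ones. GM libraries lay above water replicate 3 and below water replicates 1 and 2. The group difference of GM against water in wild type, -1.11, was close to the pooled SD of both groups (0.973). It was -1.89 without water replicate 3, and the difference from water replicate 3 alone had the other sign.

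**Figure D1:**
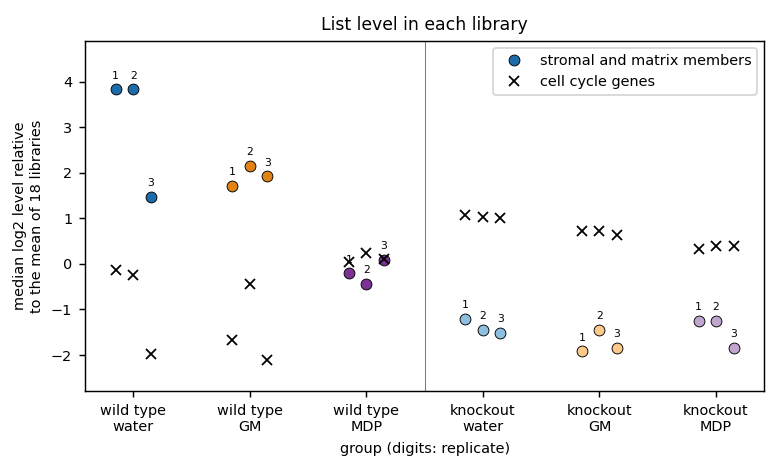
Median log2 level of the 34 tested stromal and matrix members (circles, digits give the replicate) and of 20 cell cycle genes (crosses) in each library, relative to the mean of 18 libraries, by group. Wild-type water replicates 1 and 2 lie at 3.83 on the stromal list and replicate 3 at 1.48, and all knockout libraries lie below all wild-type ones.

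Leaving out Fn1 and Ccn3, the most abundant members by count, the members took 0.0815%, 0.0739% and 0.0184% of all counts in wild-type water replicates 1 to 3. They took 0.0211% to 0.0291% with GM, 0.00496% to 0.00698% with MDP and 0.00379% to 0.00601% in knockout libraries. The wild-type MDP and knockout shares rest on different members. Col5a1, Acta2 and Thy1 had means of 10.4, 8.18 and 10.6 CPM in knockout water against 6.56, 5.3 and 1.99 in wild-type MDP, whereas the list level was higher in wild-type MDP. In bulk RNA, fewer cells of a type and less RNA per cell cannot be told apart.

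Per length, the highest member in wild-type water was Ccn3, a secreted matricellular gene, at 59.8 ± 8.9 FPKM (the authors' length-scaled unit; SD, n = 3). Acta2 (11.4 ± 5.51), Fn1 (10.6 ± 5.25), Tagln (10.5 ± 7.16), Ccn2 (10.3 ± 4.04), Bgn (9.11 ± 4.47), Serping1 (8.88 ± 6.27) and Sparc (8.77 ± 4.62 FPKM) followed. The ranges of mean ± SD of these 7 overlapped. The genes share the same 3 libraries, and their order within each library was not compared. Col1a1 stood at 4.52 ± 3.34, and the lowest tested member, the transcription factor gene Prrx1, at 0.593 ± 0.287 FPKM. In knockout water the order differed: Ccn3 was again highest (24.6 ± 4.69 FPKM), and Acta2 (3.71 ± 0.484), Fn1 (3.65 ± 0.905), Thy1 (3.53 ± 0.283) and Col5a1 (1.21 ± 0.0333) were the only others above 1 FPKM.

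**Figure D2:**
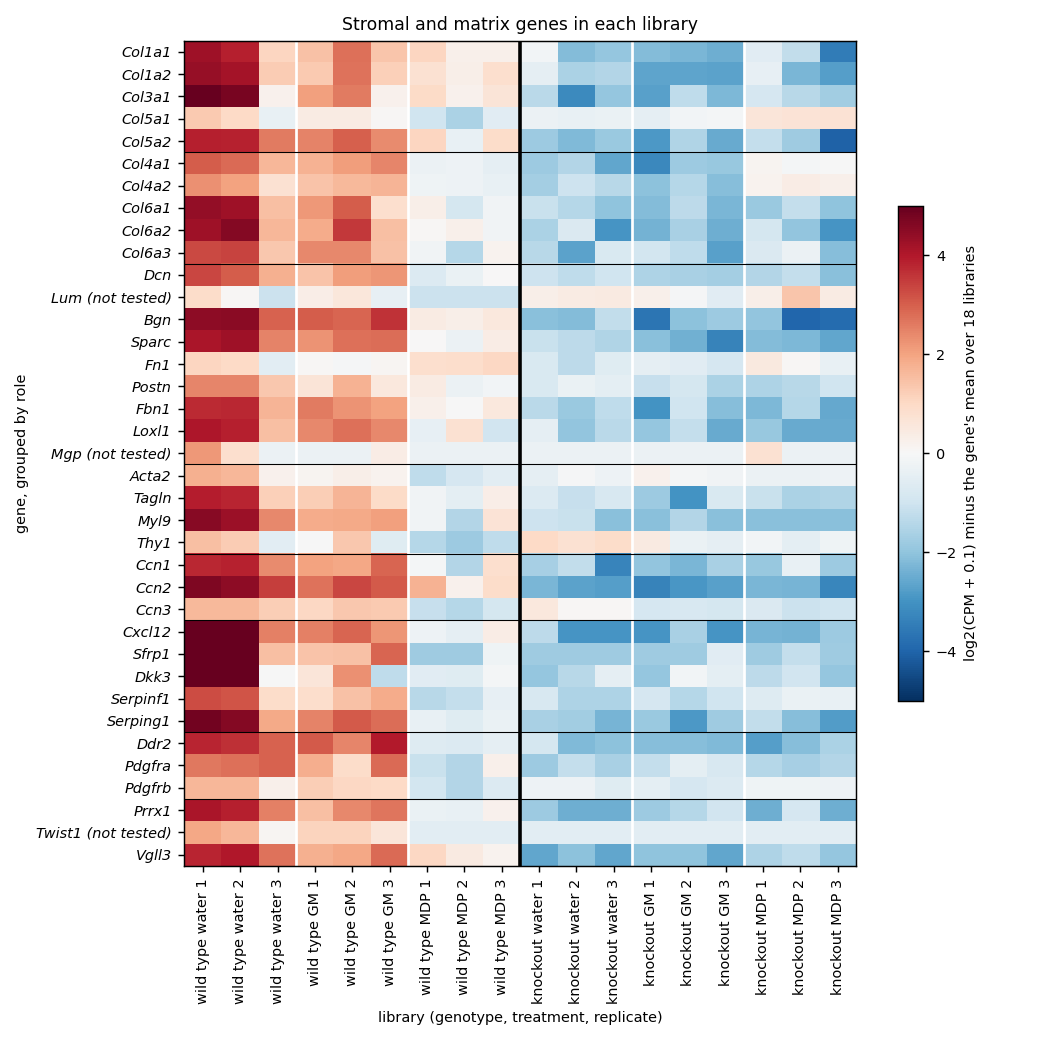
log2(CPM + 0.1) of each of the 37 members (rows, grouped by role) in each of the 18 libraries (columns), relative to the gene's mean over the libraries; red is higher and blue lower. Most rows are darkest red in wild-type water replicates 1 and 2, whereas Col5a1, Fn1, Acta2, Thy1 and Ccn3 are paler in the knockout libraries, where each was at 4.05 CPM or more.

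Among fibrillar collagens, the type I and III genes differed widely between the wild-type water libraries and the type V genes less so. Col1a1 (ENSMUSG00000001506, GRCm39 chromosome 11, 94827050 to 94843868), a chain of type I collagen, stood at 46.9, 37.2 and 5.09 CPM in wild-type water. It stood at 6.8, 16.7 and 6.47 CPM with GM and at 5.2, 2.91 and 2.91 CPM with MDP. Knockout libraries had 2.18, 0.459 and 0.559 CPM in water, 0.46, 0.407 and 0.358 with GM, and 1.57, 0.962 and 0.12 with MDP. MDP replicate 1 lay just above water replicate 3, so the water and MDP groups overlapped in wild type, and GM replicate 2 was the highest outside water replicates 1 and 2. Its partner chain gene Col1a2 gave 71.9, 62.7 and 8.29 CPM in wild-type water and 8.61, 22.6 and 7.87 with GM, where replicate 2 was again the highest. Col3a1, which encodes type III collagen, was at 42.3, 35.3 and 1.44 CPM in wild-type water and at 2.52, 1.46 and 2 with MDP. Its water replicate 3 was thus level with the lowest MDP library. Col5a2, a type V collagen chain gene, was at 38.6, 37.5 and 15.7 CPM in water and at 5.31, 1.93 and 4.85 with MDP, without overlap. Of the 5 fibrillar collagen genes, log2 fold changes for MDP against water in wild type ran from -3.73 to -1.82.

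Network collagens were lower in the wild-type MDP libraries than in water without overlap, all 5 of them, as were 18.4% of all genes. Col4a1 (chromosome 8, 11248423 to 11362826), a basement membrane collagen chain gene, was at 34.9, 30.8 and 13.7 CPM in wild-type water, 14.2, 18.2 and 23.2 with GM and 3.39, 3.54 and 3.1 with MDP. In knockout water it was at 1.12, 1.47 and 0.621 CPM and with GM at 0.358, 1.12 and 1.07. With MDP in knockout it was at 4.7, 3.9 and 4.19 CPM, above every knockout water and GM library and every wild-type MDP library. Col4a2, the partner chain gene, starts next to it on the other strand (11362805 to 11499287), and the gene models share 22 bases. It was at 1.12, 1.84 and 1.43 CPM in knockout water and at 4.43, 5.11 and 4.6 with MDP. For MDP against water the log2 fold changes were -2.98 (SE 0.35) and -2.13 (SE 0.31) for Col4a1 and Col4a2 in wild type, and 1.96 (SE 0.4) and 1.68 (SE 0.33) in knockout. The 3 type VI collagen genes, Col6a1, Col6a2 and Col6a3, whose products form beaded filaments near cells, had 0 to 18 counts in each knockout library. Col6a1 was at 23.6, 21.3 and 3.1 CPM in wild-type water and at most 0.425 CPM in any knockout library.

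Among proteoglycans and matrix glycoproteins, Dcn, which encodes decorin, a proteoglycan that binds collagen fibres, was at 27.4, 22 and 9.18 CPM in wild-type water, 7.07, 11.4 and 12.2 with GM and 1.59, 2.03 and 2.65 with MDP. In knockout libraries it lay between 0.538 and 1.24 CPM. Bgn, its relative biglycan, was at 70.1, 72.8 and 24.4 CPM in wild-type water and at 4.1, 3.8 and 4.4 with MDP, and no knockout library exceeded 1.24 CPM. Sparc, a collagen-binding matricellular gene, was at 40.9, 45.7 and 13.4 CPM in wild-type water against 2.35, 1.87 and 3.04 with MDP. For all 3 the MDP libraries lay below the lowest water library (18.4% of all genes did so), and the knockout libraries below those. Fbn1 (fibrillin, of elastic microfibrils) had the same order, with a log2 fold change of -3.11 (SE 0.49) for MDP against water in wild type. For Loxl1 (a crosslinking enzyme of elastic fibres) it was -3.73 (SE 0.68), but MDP libraries, at 0.194 to 0.885 CPM, overlapped the knockout ones (0 to 0.319 CPM). Postn, which encodes periostin, was at 15.2, 15 and 6.97 CPM in wild-type water, 3.61, 2.19 and 2.46 with MDP and 1.54, 2.16 and 1.92 in knockout water, so the last 2 groups lay side by side.

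Fn1 did not share this pattern. Fn1 (chromosome 1, 71624679 to 71692359) encodes fibronectin, the adhesive matrix glycoprotein. It was at 164, 154 and 53.8 CPM in wild-type water, 81.5, 75.3 and 83.9 with GM and 138, 144 and 160 with MDP. The MDP libraries were close to water replicates 1 and 2 and far above water replicate 3 (log2 fold change 0.25, SE 0.31). In knockout cells it was at 45.5, 31.2 and 51.9 CPM in water, 57.7, 52.3 and 43.6 with GM and 110, 80.3 and 60.2 with MDP. All 3 knockout MDP libraries lay above the water ones (log2 fold change 0.96, SE 0.32).

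The contractile genes split in knockout cells. Acta2 (chromosome 19, 34218490 to 34232990), smooth muscle actin, was at 33.4, 30.5 and 11.3 CPM in wild-type water, 10.6, 12 and 11 with GM and 3.94, 5.31 and 6.66 with MDP. Knockout libraries lay between 7.12 and 11.2 CPM in all 9 cases, above every wild-type MDP library. Tagln, an actin-binding protein of smooth muscle, was at 30.3, 27.7 and 4.48 CPM in wild-type water and at 1.64, 1.3 and 2.39 with MDP. It was at most 1.12 CPM in knockout libraries. Myl9, a myosin regulatory light chain gene, was at 9.68, 8.09 and 2.1 CPM in wild-type water, with 0 to 2 counts in each knockout library. The log2 fold change of knockout against wild type in water was -1.61 (SE 0.29) for Acta2 and -4.41 (SE 0.62) for Tagln. The promoter windows of Acta2 and Myl9 shown above both hold CArG-like boxes, a form added after the strict box did not match Acta2. Actin genes share near-identical coding stretches, and how shared reads were counted is not given, so Acta2 levels are uncertain, as are those of Myl9 for its close relatives. Tagln overlaps Pcsk7 on the other strand (13025 counts in all against 1617 for Tagln), and whether counting used strand is not given.

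Thy1 (chromosome 9, 43954681 to 43959876) encodes a surface glycoprotein of fibroblasts and T cells. It was at 16.2, 13.9 and 3.87 CPM in wild-type water and at 11.3, 9.64 and 10.9 in knockout water, inside the wild-type range (log2 fold change -0.1, SE 0.47). With GM in wild type it was at 5.65, 14.8 and 3.66 CPM, and GM replicate 2 was high as for Col1a1. With MDP it was at 2.08, 1.56 and 2.33 CPM in wild type and 5.14, 4.05 and 4.9 in knockout, below every water library of its genotype. In knockout cells it was also lower with GM (7.71, 4.48 and 4.16 CPM), without overlap with water.

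Of the CCN genes, which encode secreted proteins that bind integrins and growth factors, Ccn1 and Ccn2 followed the list and Ccn3 followed it less closely. Ccn2, connective tissue growth factor, was at 38.5, 33.7 and 16.7 CPM in wild-type water, 9.98, 15.2 and 12.7 with GM and 4.98, 1.67 and 2.78 with MDP. It had 1 to 4 counts in each knockout library. Every GM library lay below every water library in wild type (log2 fold change -1.23, SE 0.32). The same held for Myl9 (-2.13, SE 0.57), for no other member and for 4.73% of all genes. Ccn3 (chromosome 15, 54609098 to 54617435) was at 188, 185 and 144 CPM in wild-type water, 123, 153 and 152 with GM and 27, 22.6 and 33.4 with MDP. In knockout cells it was at 86.8, 63.7 and 62.6 CPM in water, 33.9, 35 and 32.7 with GM and 36.7, 29 and 30.4 with MDP. Both treatments were lower than water in knockout cells without overlap (log2 fold changes -1.07 and -1.15, SE 0.16 each).

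**Figure D3:**
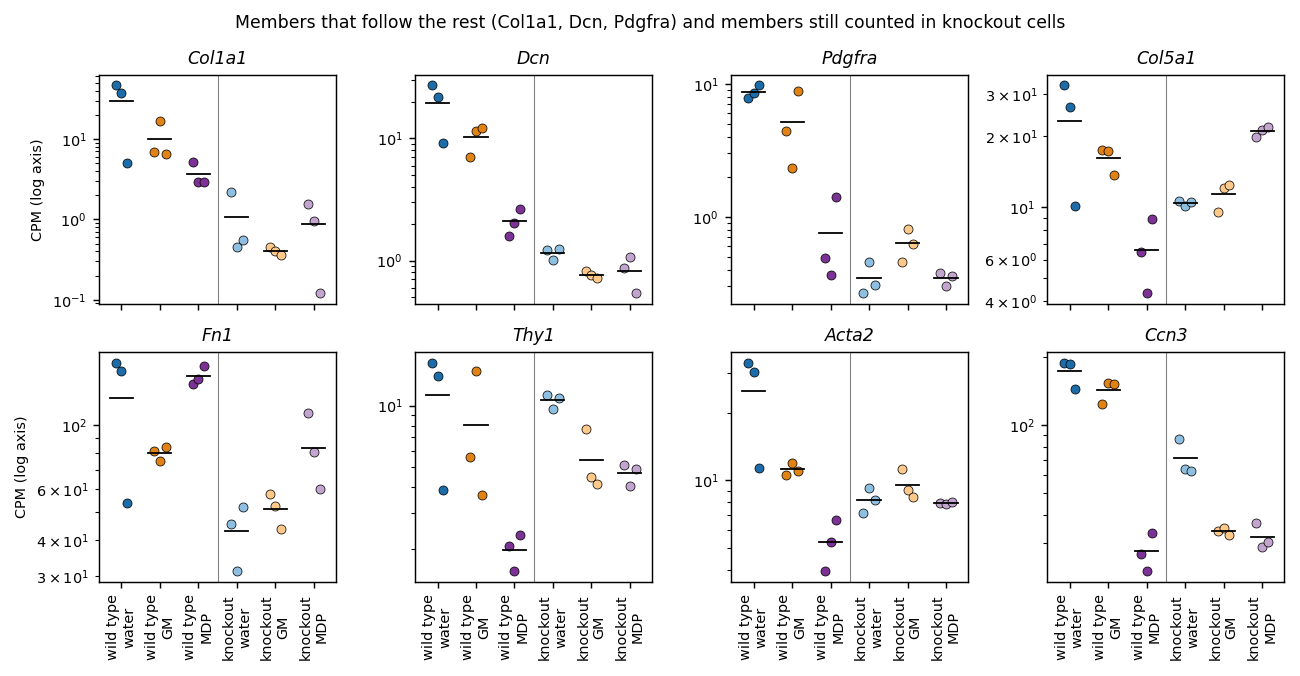
CPM of 8 members on log axes in each library (points) with the group mean (line), by genotype and treatment. Col1a1, Dcn and Pdgfra stand at most at 2.18, 1.24 and 0.814 CPM in knockout cells, whereas Col5a1, Fn1, Thy1, Acta2 and Ccn3 stand at 4.05 CPM or more in every knockout library.

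Secreted signals and inhibitors were all lower in wild-type MDP without overlap with water, as were 18.4% of all genes. Cxcl12, the stromal chemokine, was at 40.6, 38.8 and 4.31 CPM in wild-type water, 4.33, 5.63 and 3.48 with GM and 0.547, 0.468 and 0.905 with MDP, with 0 to 4 counts in each knockout library. Sfrp1, a Wnt inhibitor gene, was at 13.6, 14.2 and 0.885 CPM in wild-type water and had 0 counts in all 3 knockout water libraries. Against the 3 counts that an observed 0 allows over that group, it was at least 181-fold lower. Dkk3, of another family of Wnt modulators, was at 14, 12.4 and 0.276 CPM in wild-type water. Its 5 counts in replicate 3 were as many as in the highest knockout library. Serpinf1, which encodes an inhibitor of vessel growth, and Serping1, the inhibitor of the complement C1 enzyme, were at 7.91, 7.18 and 1.44 CPM and at 31.3, 26.6 and 4.09 CPM in wild-type water. With MDP they were at 0.219 to 0.517 and at 0.625 to 0.776 CPM.

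Receptor genes were less alike. Pdgfra, a receptor for platelet-derived growth factor that marks fibroblasts, was at 7.81, 8.58 and 9.79 CPM in wild-type water, where replicate 3 was the highest. It was at 4.44, 2.31 and 8.85 with GM and at 0.492, 0.364 and 1.42 with MDP, and no knockout library exceeded 0.814 CPM. Ddr2, a collagen receptor gene, was at 9.33, 8.4 and 5.03 CPM in wild-type water and 5.43, 3.49 and 10.2 with GM, and GM replicate 3 was the highest library for it. For both genes GM replicate 2 was the lowest of its group, in contrast to Col1a1. Pdgfrb, the related receptor of pericytes and fibroblasts, was at 6.75, 6.75 and 2.49 CPM in wild-type water, 1.04, 0.677 and 1.23 with MDP and 1.3 to 1.7 in knockout water. The regulator genes Prrx1 and Vgll3 were at 8.92, 7.85 and 2.99 and at 8.42, 9.73 and 3.93 CPM in wild-type water, with 0 to 4 counts in each knockout library. Twist1 had 9, 6 and 1 counts there and 0 in all MDP and all knockout libraries.

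The wild-type water libraries show that the members did not differ by a common factor. Replicate 2 stood at 79.3% to 128% of replicate 1 over the 34 tested members (median 91%). Replicate 3 ranged from 1.97% for Dkk3 and 3.4% for Col3a1 to 125% for Pdgfra, with a median of 31.7%. It was under 20% for 12 members, among them Cxcl12 (10.6%), Col1a1 (10.8%), Col1a2 (11.5%) and Tagln (14.8%), and over 50% for 3, Ddr2 (54%), Ccn3 (76.5%) and Pdgfra. Dcn (33.5%), Bgn (34.9%) and Acta2 (33.8%) lay near the median.

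**Figure D4:**
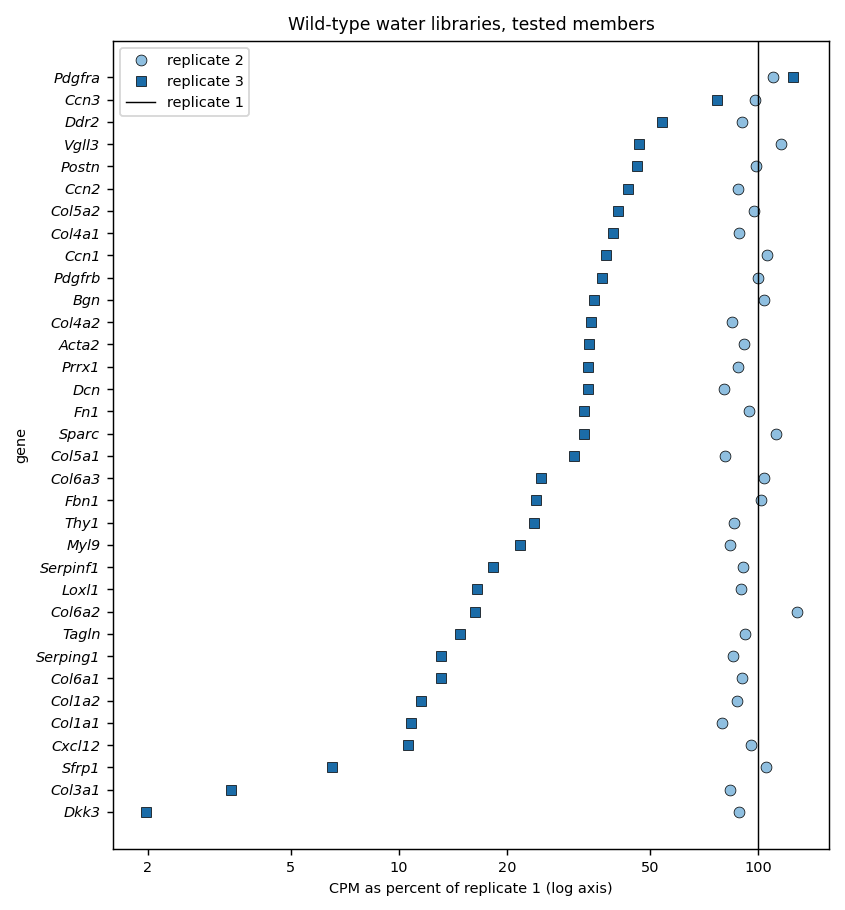
CPM of the 34 tested members in wild-type water replicates 2 (circles) and 3 (squares) as a percent of replicate 1 (line at 100), on a log axis. Replicate 2 lies between 79.3% and 128% for every gene, whereas replicate 3 runs from 1.97% (Dkk3) to 125% (Pdgfra).

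Other genes differed with these libraries. The median level of 20 cell cycle genes (relative log2, as for the list) was -0.14, -0.25 and -1.97 in wild-type water, -1.66, -0.45 and -2.1 with GM, and 0.04 to 0.25 with MDP. In knockout libraries it was 0.33 to 1.08. Wild-type water replicate 3 and GM replicates 1 and 3 were thus low on both the cell cycle genes and Col1a1, whereas MDP and knockout libraries were high on the cell cycle genes and low on the stromal list. Its part in the stromal levels was not tested.

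The 5 epithelial genes, nearly all Cdh1, summed to 82.4, 62.4 and 2.71 CPM in wild-type water and 11.1, 33.3 and 3.29 with GM, the order of libraries seen for Col1a1. They summed to 3.75 to 13.5 CPM in MDP and knockout libraries, and Krt8 and Krt18 had 0 counts in all 18. The 5 T and NK cell genes, mostly Cd3g, summed to 6.7, 3.47 and 0.221 CPM in wild-type water and 1.32, 2.31 and 0.061 with GM.

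Markers of other cell types also moved with the groups. The 4 mast cell and basophil genes summed to 14.5 to 28.9 CPM in knockout and 0.383 to 6.33 CPM in wild-type libraries, and the 5 B cell genes to 4.03 to 6.99 and 0 to 1.27 CPM. The 8 neutrophil genes summed to 77.2 to 284 CPM in knockout, 57 to 79.3 in wild-type MDP and 7.06 to 50.4 in the other wild-type libraries. The 6 genes of CXCL12-abundant reticular cells and adipocytes summed to 5.05 to 7.06 CPM in wild-type water, 3.81 to 4.27 with GM, 0.572 to 0.711 with MDP and 0.409 to 1.61 in knockout libraries. The adipocyte gene Adipoq had at most 1 count in any library. The 6 pericyte and smooth muscle genes summed to 1.88 to 7.41 CPM in wild-type water, 1.04 to 1.29 with MDP and 3.09 to 4.94 in knockout libraries. The 5 chondrocyte genes summed to 2.47 to 4.26 CPM in wild-type water and at most 0.84 CPM in MDP and knockout libraries. Of the 6 osteoblast genes, Bglap and Dmp1 had 0 counts in all 18 libraries. The sum, nearly all Runx2, was 20.1 to 35.5 CPM in wild-type and 14 to 20.7 CPM in knockout libraries. The 10 endothelial genes, mostly Vwf and Kdr, summed to 241 to 338 CPM in wild-type and 351 to 519 CPM in knockout libraries. Cldn5 had 1 count in all. The median level of the 7 tested endothelial genes overlapped between genotypes, at -0.27 to 0.26 in wild type and -0.63 to 0.39 in knockout. The part of these cells in the stromal levels was not tested.

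To find members that depart from the rest, each gene's log2 CPM was correlated with the median of the other tested members over the 18 libraries. The groups differ and the libraries share scaling, so r is a description. It was below 0.7 for 3 of 34: Thy1 (0.32), Col5a1 (0.43) and Fn1 (0.56). Acta2 (0.71), Ccn3 (0.82) and Dkk3 (0.83) came next. Over the 9 wild-type libraries alone r was 0.81 or higher for every tested member except Fn1 (-0.03), so Thy1 (0.93), Col5a1 (0.96) and Acta2 (0.98) followed the rest there. Over the 9 knockout libraries r ran from -0.56 (Acta2) to 0.88 (Ccn2) with a median of 0.26, and most members had few counts there. In knockout water 7 members had 3 counts or fewer in every library. The 8 members with at least 10 counts in all 9 knockout libraries were Col5a1, Col4a2, Fn1, Postn, Acta2, Thy1, Ccn3 and Pdgfrb.

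Col5a1 (chromosome 2, 27776437 to 27929526), a chain of type V collagen, was the fibrillar collagen gene with counts to spare in knockout cells. It was at 32.8, 26.5 and 10.1 CPM in wild-type water, 17.5, 17.3 and 13.7 with GM and 6.45, 4.32 and 8.92 with MDP. In knockout cells it was at 10.6, 10.1 and 10.5 CPM in water, 9.5, 12.1 and 12.4 with GM and 19.8, 21.2 and 21.9 with MDP. Knockout MDP libraries were thus the highest of the knockout ones and wild-type MDP libraries the lowest of all 18. Its partner chain gene Col5a2 had 1 to 19 counts in each knockout library. The log2 fold changes for MDP against water were -1.82 (SE 0.33) in wild type and 1.01 (SE 0.31) in knockout.

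**Figure D5:**
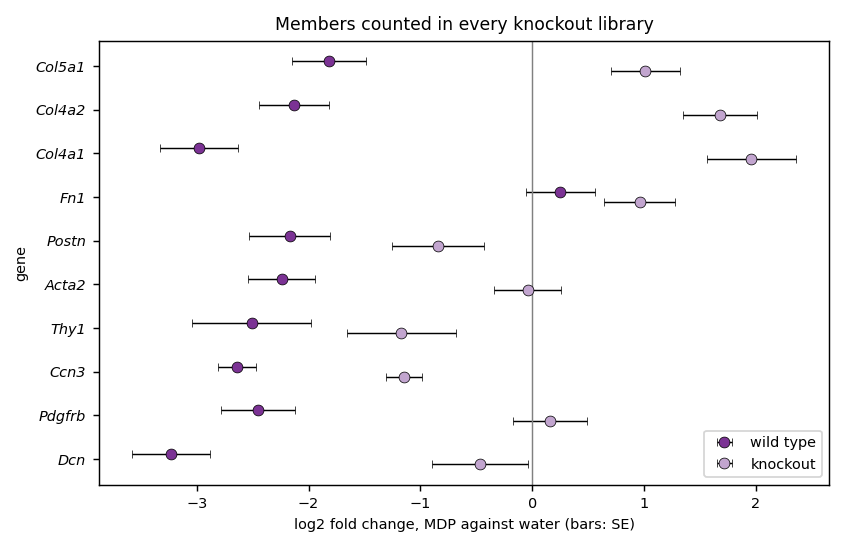
log2 fold change of MDP against water (points, bars give the SE) in wild type (dark) and knockout (light) for 10 members counted in every knockout library. The SE uses a spread estimated over all groups together, so the bars do not show each genotype's own replicate spread. Col5a1, Col4a1 and Col4a2 lie below 0 in wild type and above 0 in knockout, and Fn1 lies above 0 in both.

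Counts of members called by edgeR's quasi-likelihood fit at an adjusted p below 0.05 are given with the share of all 15450 tested genes called the same way. Nothing is read from them, since these contrasts may have chosen the list. For MDP against water in wild type 33 of 37 members were called lower (13.5% of all genes), 0 higher (11.2%), 1 tested member, Fn1, was not called, and 3 were not tested. The median log2 fold change was -3.48, against -0.04 over all genes. In 32 of 37, every MDP library lay below every water library (18.4% of all genes), and in 0 above (18.8%). With the 6 compared libraries alone 28 were lower (4.02%) and 0 higher (5.13%). For knockout against wild type in water, 33 members were called lower (18.5% of all genes), 0 higher (14.6%), Thy1 was not called, and the median was -5.11 against -0.03. With the 6 compared libraries alone 30 were lower (8.8%) and 0 higher (6.98%). The libraries did not overlap for 33 lower (22.3%) and 0 higher (22%). The wild-type water group enters both comparisons.

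For GM against water in wild type 5 members were called lower (0.777% of all genes) and 0 higher: Acta2, Tagln, Myl9, Ccn2 and Cxcl12. The median was -1.14 against -0.03 over all genes, and all 34 tested members had a negative value. Without water replicate 3 the count was 28, and it was 0 without water replicate 1, water replicate 2 or GM replicate 1, and 1 without GM replicate 3. It was 2 or 3 without MDP replicate 1 or any 1 of the 9 knockout libraries. With the 6 compared libraries alone it was 0 (0% of all genes were lower and 0.65% higher), and DESeq2 called 9. Every GM library lay below every water library for 2 of 37 members (4.73% of all genes) and above for 0 (7.27%).

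In knockout cells GM against water gave 1 member called lower, Ccn3 (0.0194% of all genes), and the median was -0.44 against 0 over all genes. With those 6 libraries alone Col1a2, Thy1 and Ccn3 were lower (4.46%) and 0 members higher (4.15%). All GM libraries lay below all water ones for 7 members (12.4%) and above for 1 (11%). MDP against water gave 2 called higher, Col4a1 and Col4a2 (1.59% of all genes), and 1 lower, Ccn3 (1.17%), with a median of -0.06 against -0.01. Fitted with those 6 libraries alone, Col5a1, Col4a1 and Col4a2 were higher (10.4% of all genes) and Thy1 and Ccn3 lower (10.5%). All MDP libraries lay above all water ones for 7 members (15.5%) and below for 4 (17.3%). Without wild-type water replicate 3 the count for MDP was 5, without knockout water replicate 1 it was 1 and without knockout water replicate 3 it was 2. Ccn3 was not called for GM without any 1 knockout water or knockout GM library, nor without wild-type water replicate 2, MDP replicate 1 or knockout MDP replicates 2 or 3.

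Another 82 matrix and stromal genes, listed by function and not among the members, were tested in the same fit. For MDP against water in wild type 42 of 82 were lower (13.5% of all genes), 1 higher (11.2%), 12 did not pass and 27 had too few counts. Their median log2 fold change was -2.6. Among those that fell were Serpinh1, the collagen chaperone gene (log2 fold change -3.74, SE 0.36, edgeR adjusted p = 2.57e-06), and Adamts2, a procollagen-trimming protease gene (-4.16, SE 0.87, adjusted p = 0.00264). Of the collagens Col8a1 (-4.62) and Col12a1 (-3.74) fell, and of the laminins Lamb1 (-3.26) and Lama4 (-2.85). Thbs2, a matricellular glycoprotein gene (-4.77), and Ltbp1, which anchors latent TGF-beta (-4.27), fell, as did the proteoglycan genes Ogn (-4.45) and Hspg2 (-3.02). The actin-binding genes Tpm2 (-2.65) and Cald1 (-2.6), the growth factor receptor gene Fgfr2 (-4.49) and the collagen receptor gene Itga11 (-4.44) fell too. So did the Wnt modulator gene Sfrp4 (-5.95), Ccn4 (-4.75) and Tead1, a DNA-binding partner of YAP (-3.75). These had adjusted p of 1.35e-06 to 0.0227. For Ogn and Itga11 the wild-type MDP and water libraries overlapped. As for the members, genes that entered through the wild-type water group had to differ, which limits these tests. With the 6 compared libraries alone Adamts2, Ogn, Fgfr2, Itga11 and Sfrp4 had too few counts to be tested, and Col8a1 and Tpm2 did not pass. Loxl3, a crosslinking enzyme gene, was the 1 that rose (log2 1, adjusted p = 0.0267), named after its value was seen. That count of 1 was 0 with the 6 compared libraries alone, with no filter and without MDP replicate 1 or 2, 2 without water replicate 1 or GM replicate 2, and 3 without water replicate 3. Fitted with the 6 compared libraries alone, 22 were lower (4.02% of all genes) and 0 higher (5.13%).

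In the other comparisons fewer of the 82 passed, except between genotypes. For knockout against wild type in water 44 were lower (18.5% of all genes) and 2 higher (14.6%), with a median of -4.01. The 2 were Col15a1, a basement membrane collagen gene (log2 1.71, SE 0.3, adjusted p = 0.000506), and the proteoglycan gene Vcan (log2 0.97, SE 0.35, adjusted p = 0.0454). With the 6 compared libraries alone Vcan did not pass and Col15a1 did. The count of 2 higher was 1 with no filter and without water replicate 1 or 2 or any 1 MDP or knockout library, and 3 without wild-type water replicate 3. For GM against water in wild type the basement membrane gene Nid2 was lower (log2 -2.08, SE 0.52, adjusted p = 0.0271), alone of the 82, and without water replicate 3 the count was 32. Leaving out water replicate 1 or 2 or GM replicate 1 or 2 gave 0, and leaving out knockout GM replicate 2 or knockout MDP replicate 1 gave 2. In knockout cells 0 of 82 passed for GM by edgeR or DESeq2, with 5 at an unadjusted p under 0.05. For MDP the growth factor gene Tgfb2 was higher (log2 1.91, SE 0.42, adjusted p = 0.0177). That count was 7 without wild-type water replicate 3 0 without any 1 knockout water library or knockout MDP replicate 2, and 2 without wild-type GM replicate 3 or knockout GM replicate 1. Col15a1, Vcan, Nid2 and Tgfb2 were named after their values were seen.

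Genes outside the list whose level was most like the list's were sought among 10219 tested genes with a mean of at least 5 CPM. Over the 18 libraries the 10 closest were Fat1 (r = 0.99), Ltbp2 (0.984), Tyro3 (0.974), Rbp4 (0.967), Srm (0.965), Serpinh1 (0.965), Grem1 (0.965), Pdia4 (0.963), Igfbp7 (0.963) and Heg1 (0.96). Over the 9 wild-type libraries r was 0.91 to 0.99 and over the 9 knockout libraries -0.02 to 0.77. Ltbp2, Serpinh1, Grem1 and Igfbp7 were among the 82. Fat1, a protocadherin gene, had mean levels of 23.2, 11.9 and 3.09 CPM in wild-type water, GM and MDP and 1.12 to 1.56 CPM in the knockout groups.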

How the data were processed

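RNA from 18 libraries (2 genotypes by 3 treatments, 3 libraries each) was sequenced after poly(A) selection with directional libraries, per the labels' protocols. Per the submitters' processing notes the authors used HISAT2 2.0.5, featureCounts 1.5.0-p3 and build GRCm39. Settings, use of strand and annotation release are not given in the sources used here. The deposited table holds raw read counts per gene, and a deposited table of FPKM was used for levels between genes. They were fitted by edgeR 4.0.16 (R 4.3.3), where filterByExpr (minimum count 10) kept 15450 genes, at least 99.92% of each library, with TMM factors of 0.8772 to 1.057. A robust quasi-likelihood fit of all 18 libraries, 1 mean per group (12 residual degrees of freedom), gave 5 comparisons with 2-sided F tests and Benjamini-Hochberg adjustment (threshold 0.05). The SE is the fold change divided by the root of F. It uses a spread per gene shared by all groups, although wild-type replicates differed more than knockout ones. List levels used a prior count of 2. The floor for an observed 0 is 3 counts, for counting error only. The fit was checked on simulated data.

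Members and lists were chosen with earlier results of these data known. All 37 members are accounted for by role. A member was said to depart from the rest below r = 0.7. Of the 82 other genes, the 2 per role with the largest change with MDP in wild type were named (for the regulators only 1 was called), and the 10 genes most like the list. Alternatives were DESeq2 1.42.0, its size factors, no filter, the compared libraries alone, a replicate block and leaving out each library. The CArG-like motif was added after the strict CArG box was seen not to match Acta2.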

Additional observations from a re-analysis of the deposited data

Results flagged for a closer look

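For Col5a1, Col4a1, Col4a2, Serpinf1, Pdgfrb and Vgll3 the MDP libraries lay on opposite sides of the water libraries in the 2 genotypes. Every MDP library was below every water library in wild type and above every one in knockout. In wild type 32 of 37 members and 18.4% of all genes lay below in this way. In knockout 7 of 37 members and 15.5% of all genes lay above. The log2 fold changes of MDP against water were -1.82 in wild type and 1.01 in knockout for Col5a1, -2.98 and 1.96 for Col4a1, and -2.13 and 1.68 for Col4a2. They were -4.06 and 1.02 (SE 0.66 in knockout) for Serpinf1, which had 3 to 11 counts in each knockout water and MDP library. For Pdgfrb they were -2.45 and 0.16 (SE 0.33 in knockout, so near 0 there). For Vgll3 they were -3.15 and 2.25 (SE 1.15 in knockout), with 3 counts or fewer in every knockout water and MDP library. The difference between genotypes was not tested.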

How the results depend on the processing

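The 33 members called for MDP in wild type stayed 33 with each library left out, and the count between genotypes was 32 to 33. For GM in wild type, in place of 5 members, DESeq2 called 9, the fit with no filter 1, the 6 compared libraries 0, and leave-one-out fits 0 to 28. The other 82 genes gave 1 call there, 4 by DESeq2, 0 with 6 libraries, and 0 to 32 with a library left out. For MDP in wild type they gave 43, 22 with 6 libraries and 35 to 51 with a library left out. For GM in knockout, 6 libraries gave 3 members in place of 1 and 5 other genes in place of 0, and leaving out a library gave 0 to 1 members. For MDP in knockout, DESeq2 and 6 libraries each gave 5 members in place of 3, and leaving out a library 1 to 5. The other genes gave 2 by DESeq2, 2 with no filter, 9 with 6 libraries and 0 to 7 with a library left out, in place of 1. On log2 FPKM with 0.1 added, the list level differed by -0.12 for GM in knockout (-0.35 on CPM with a prior count of 2). Between genotypes in water it differed by -3.44 (-4.43 on CPM). The cause of these shifts was not tested. Settings were compared by the number of genes called, so whether any called value changed sign was not checked gene by gene. The list level difference for MDP in knockout (-0.07) was near 0 and ran from -0.17 to 0.13 with a library left out. The main fit did not pair samples by replicate number. Correlations of same-numbered deviations were -0.19, 0.48 and 0.47 for GM in wild type and -0.04 to 0.06 elsewhere. Whether replicate numbers pair the wild-type GM and water libraries cannot be told from these values. With the replicate block, GM in wild type gave 3 members and 2 other genes, and no other count moved by over 1.5 times. Genes at few counts in knockout cells limit what can be read there.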
